A study of Homo sapiens with 12 samples.

Results

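The RNA captured with miR-424-3p was set against the input RNA of the cells it came from. The arrays were chosen by title: the 3 arrays titled as miR-424-3p pull-downs and the 3 titled as miR-424-3p inputs, which are 6 of the 12 arrays of the series, and all 15329 listed probes were examined. HEK293T cells, a human embryonic kidney line that carries the SV40 large T antigen, received 200 pmol of a synthetic biotinylated miR-424-3p duplex and were harvested 24 hours later, and streptavidin beads then captured the duplex with its bound RNA. The inputs came from cells given the same duplex, without the bead step. The other 6 arrays are the pull-down and the input of a miR-199a-5p duplex, used at the same amount and time and with 3 arrays each, so that every group here received a biotinylated duplex. That second duplex is named here as in the sample labels, and the study's own list of its datasets also names miR-199a. However, a supplementary legend of the study gives miR-199b-5p for a related plot, so its identity is less sure. The mock-transfected cells that served the study as array controls were not analysed here. All groups are the same cell line, in which the miRNA was supplied from outside. The same legend describes independent replicates, whereas the labels say nothing of separate cultures, so the p-values measure the spread between these samples.

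A miRNA is a short RNA that is loaded into an Argonaute protein of the RNA-induced silencing complex (RISC). Loaded miRNAs pair with mRNAs, most often through the seed near the 5′ end of the miRNA, and the complex then lowers the stability or the translation of the mRNA. A biotin on the synthetic strand allows the miRNA to be retrieved together with RNA that is attached to it, directly or through proteins. The hairpin of the MIR424 gene gives miR-424-5p, a member of the miR-16 family, from its 5′ arm and miR-424-3p from its 3′ arm.

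The mature sequences are shown because the seed sets apart the duplex studied here from the other arm of its own hairpin and from the second duplex of the series. They are printed 5′ to 3′, as listed by RefSeq for assembly GRCh38.p14, with the seed (bases 2 to 8) in capitals. The exact strand that was synthesised is not printed in the sources used here.
hsa-miR-424-3p: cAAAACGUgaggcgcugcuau
hsa-miR-424-5p: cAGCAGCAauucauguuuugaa
hsa-miR-199a-5p: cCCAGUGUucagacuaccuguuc
The 3 seeds differ from one another. A site fully paired to the seed of miR-424-3p would read ACGUUUU in an mRNA, and one paired to the seed of miR-199a-5p would read ACACUGG. miR-424-3p has 21 bases and lies on the minus strand of chromosome X at chrX:134546644-134546664, within the 98-base hairpin at chrX:134546614-134546711, where capitals mark the 3p arm.
MIR424 hairpin: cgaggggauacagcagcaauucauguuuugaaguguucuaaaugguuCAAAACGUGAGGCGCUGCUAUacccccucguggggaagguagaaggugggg

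Signals of an Illumina Human HT-12 BeadChip were deposited on a normalized log2 scale. Since the arrays had been normalized to one another, their medians differed little (9.149 to 9.208), and "higher" and "lower" below are therefore relative to the bulk of the probes. Across probes the miR-424-3p pull-downs correlated with one another at 0.9914 to 0.9931 and the inputs at 0.9878 to 0.9941, while pull-down and input correlated at 0.9166 to 0.9392. Of 10 markers chosen for an embryonic kidney line, 6 were among the listed probes. Vimentin (VIM) read 14.07 ± 0.05 in the pull-downs and 13.88 ± 0.12 in the inputs, and N-cadherin (CDH2) had means of 12.50 and 12.09 (SD of VIM, n = 3 each). The other markers had lower means: KRT8 9.17 in pull-downs and 8.88 in inputs, KRT18 8.34 and 8.52, NEFM 9.32 and 9.88 and NEFL 8.33 and 8.74. Of the 6, CDH2 was higher in pull-down (log2 fold change 0.41), NEFM (-0.55) and NEFL (-0.40) were lower, and the rest passed neither test. Of 8 fibroblast markers and 10 blood cell markers 1 each was listed, COL1A1 with means of 7.77 in pull-downs and 8.03 in inputs and HBA2 with 8.15 and 8.28, near the bottom of the scale. The arrays read bulk RNA, in which fewer cells of a type and less RNA per cell cannot be told apart.

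Many genes had a different signal in the RNA captured with miR-424-3p than in the input, in both directions. With limma's moderated test, one-sided in each direction and adjusted by Benjamini-Hochberg over the 15329 probes at a threshold of 0.05, 4029 probes (26.3%) were higher in pull-down and 4414 (28.8%) were lower. For each gene the brightest probe over all 12 arrays was then taken, and on that basis 2926 of 9647 genes were higher (30.3%) and 2477 were lower (25.7%). Most of these differences were small. The median log2 fold change of the higher genes was 0.59, 10% of them lay below 0.32 and 10% above 1.22, and 540 of them reached a log2 fold change of 1. The lower genes had a median of -0.55, and 363 of them fell by at least 1 log2 unit. The median over all genes was 0.03. The deposited transformation compresses differences at low signal, so the folds of dim probes may be understated. The lowest value of an array also differed, 7.57 in each pull-down and 7.72 to 7.75 in the inputs. For dim probes called lower, the part of this gap was not tested. The 3 arrays in each group limit the precision of each value.

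**Figure D1:**
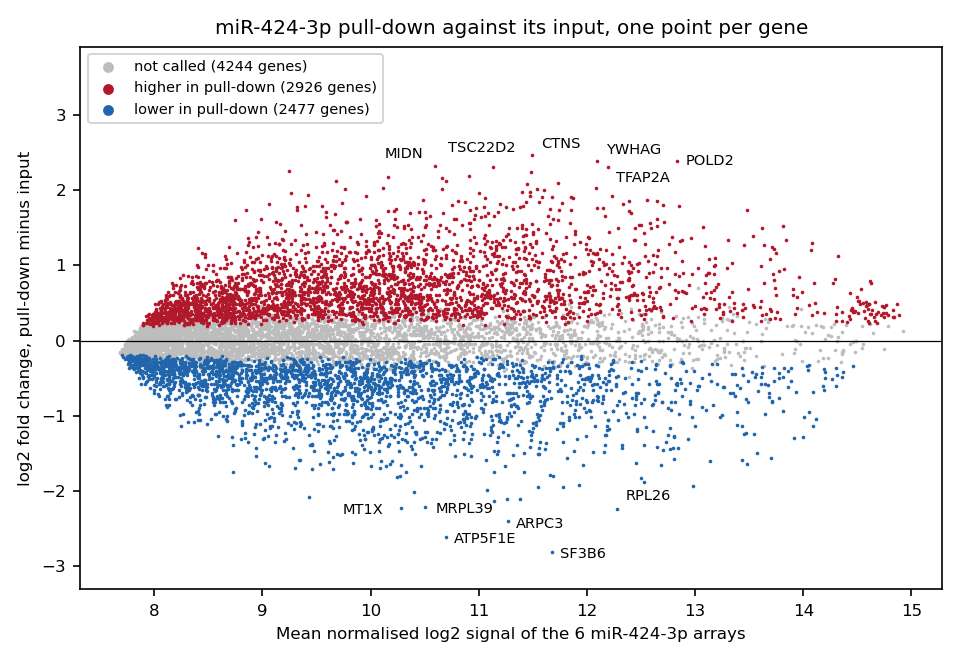
Log2 fold change of pull-down minus input (y axis) against the mean normalized log2 signal of the 6 miR-424-3p arrays (x axis), with 1 point per gene. Red points are the 2926 genes higher in pull-down, blue points the 2477 lower and grey points the 4244 that passed neither test, and the 6 leading genes each way are named.

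Where a gene had several probes, they did not always move together. Of 2337 genes with at least 2 probes, all probes were higher for 316 and all were lower for 474. For 429 genes some probes were higher and none lower, for 498 some were lower and none higher, and for 527 no probe was called. In 93 genes at least 1 probe was higher and another lower, so that a gene named here by its brightest probe may hold transcripts that behaved differently.

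The genes with the largest enrichment had unrelated roles, and the first 6 had adjusted p-values (limma) of 1.57e-09 for CTNS to 1.45e-07 for TFAP2A. CTNS encodes cystinosin, which exports cystine from lysosomes, and read 12.71, 12.78 and 12.70 in the pull-downs, against 10.40, 10.15 and 10.24 in the inputs. Its log2 fold change was 2.47 ± 0.10 (± SE here and below), or 5.53-fold. YWHAG, a 14-3-3 protein that binds phosphorylated partners, read 13.10, 13.22 and 13.56 in the pull-downs, against 10.82, 11.16 and 10.73 in the inputs, and rose by 2.39 ± 0.13. Every pull-down of both genes lay more than 1 log2 unit above every input. POLD2, an accessory subunit of DNA polymerase delta, read 14.01, 14.33 and 13.75 in the pull-downs and 11.77, 11.65 and 11.51 in the inputs (log2 fold change 2.39 ± 0.16). MIDN encodes midnolin, a nuclear protein that brings substrates to the proteasome. It read 11.97, 11.60 and 11.70 in the pull-downs and 9.66, 9.26 and 9.37 in the inputs (2.32 ± 0.15). TSC22D2, of the TSC22 domain family, read 12.147, 12.164 and 12.546 in the pull-downs and 10.002, 10.029 and 9.902 in the inputs (2.31 ± 0.10). The arrays of the groups did not overlap for any of these genes, and the second probes of CTNS, YWHAG, POLD2 and TSC22D2 were also higher, with log2 fold changes of 1.10, 2.11, 1.39 and 1.30.

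The transcription factor AP-2 alpha, TFAP2A, was less uniform across its probes. Its brightest probe read 13.43, 13.27 and 13.34 in the pull-downs, against 11.56, 10.71 and 10.86 in the inputs, a log2 fold change of 2.30 ± 0.18. The first input lay above the other two but below every pull-down. A second TFAP2A probe was higher by 1.37, while the remaining probes had log2 fold changes of -0.13 and -0.18 and passed neither test, with mean signals near the bottom of the scale, 7.99 and 7.98.

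**Figure D2:**
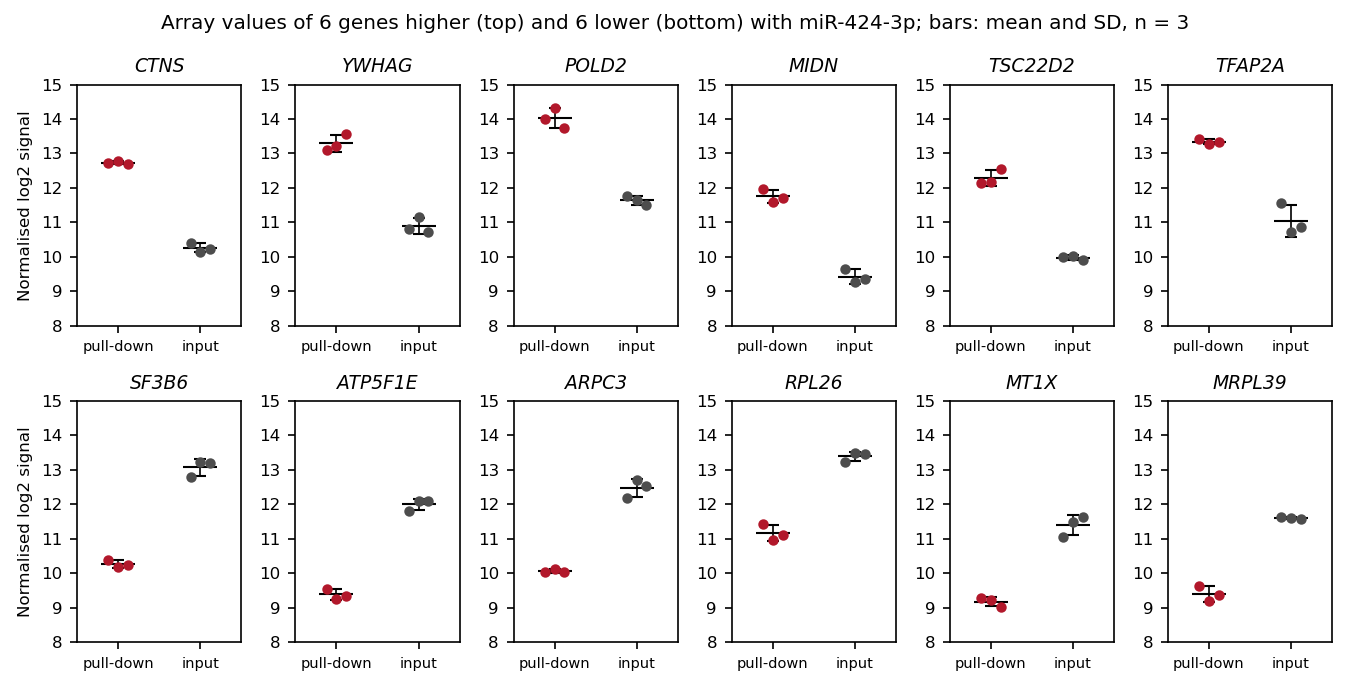
Normalized log2 signal of every array for the 6 leading higher and 6 leading lower genes, with the 3 pull-down arrays to the left of the 3 input arrays for each gene and bars at each group's mean and SD (n = 3). In all 12 genes the pull-down arrays are separate from the input arrays.

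Further down the ranking by log2 fold change, ranks 16 to 30 held several regulators of transcription. The coactivator and histone acetyltransferase EP300 read 10.96, 10.80 and 10.99 in the pull-downs, against 9.10, 9.01 and 8.87 in the inputs, and was higher by 1.92 ± 0.10 (adjusted p = 5.25e-09, limma). The forkhead factor FOXJ3 read 12.81, 12.82 and 12.81 in the pull-downs and 10.87, 10.91 and 10.93 in the inputs, a log2 fold change of 1.91 ± 0.10. Both genes varied little between arrays of one group. The homeobox factor HLX rose by 2.03, the zinc finger gene ZNF213 by 2.02, the orphan nuclear receptor NR2F1 by 1.96 and E2F4, an E2F factor that mostly represses, by 1.92. CIPC, an inhibitor of the circadian CLOCK protein, rose by 1.98 and FBRS by 1.91. The other genes of these ranks included the tryptophanyl-tRNA synthetase WARS1 (2.00), the ubiquitin-conjugating enzyme UBE2D4 (1.98), the RNA-binding protein MEX3D (1.94), CLPTM1 (1.92) and CNOT4, a ubiquitin ligase associated with the CCR4-NOT deadenylase (1.91). Other CNOT4 probes were higher by 0.81 and 0.33.

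The genes with the largest depletion also had varied roles. SF3B6, the SF3b subunit that contacts the branch point adenosine in the spliceosome, read 10.39, 10.18 and 10.25 in the pull-downs, against 12.80, 13.23 and 13.21 in the inputs, a log2 fold change of -2.81 ± 0.16. Its second probe fell by 1.66. ATP5F1E, the epsilon subunit of mitochondrial ATP synthase, read 9.56, 9.27 and 9.34 in the pull-downs and 11.82, 12.09 and 12.09 in the inputs (-2.61 ± 0.15). ARPC3 belongs to the ARP2/3 complex, which starts branched actin filaments. It read 10.03, 10.14 and 10.03 in the pull-downs and 12.18, 12.70 and 12.53 in the inputs (-2.40 ± 0.14). In each of these genes the lowest input lay more than 2 log2 units above the highest pull-down. RPL26, a protein of the large ribosomal subunit, read 11.42, 10.97 and 11.12 in the pull-downs and 13.23, 13.48 and 13.47 in the inputs (-2.23 ± 0.18). The metallothionein MT1X, a small metal-binding protein, read 9.28, 9.22 and 9.03 in the pull-downs and 11.07, 11.49 and 11.63 in the inputs (-2.22 ± 0.14). MRPL39, of the mitochondrial ribosome, read 9.65, 9.20 and 9.37 in the pull-downs and 11.64, 11.62 and 11.57 in the inputs (-2.21 ± 0.10). All 6 genes were separated on every array, with adjusted p-values between 5.54e-09 for MRPL39 and 3.05e-07 for RPL26.

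Ranks 7 to 25 of the depleted genes held several mitochondrial and ribosomal genes beside others. Among them were the ATP synthase subunit ATP5F1C (log2 fold change -2.13), the complex I subunit NDUFA12 (-1.94), the cytochrome c oxidase subunit COX6C (-1.88) and its copper chaperone COX17 (-1.83). Ribosomal genes of these ranks were MRPS18C (-2.10), MRPL33 (-1.95) and RPL21 (-1.92), and TOMM5, a small subunit of the outer membrane import pore, had a value of -1.75. OSTC, a subunit of the oligosaccharyltransferase that glycosylates proteins, fell by 2.10, and its other probes fell by 2.95 and 1.56. RPA3, the smallest subunit of the single-strand binding protein RPA, fell by 1.80, as did CDKN3, a phosphatase of cyclin-dependent kinases. The actin-binding peptide gene TMSB10 had a log2 fold change of -1.93, the tetraspanin gene TSPAN13 one of -2.01, CACYBP, whose product binds S100 proteins, one of -1.81, the glutathione transferase gene GSTO1 one of -1.78, HAUS1 of the spindle-associated augmin complex one of -1.75 and the esterase gene ESD one of -1.74. TSNAX and FMC1 were each lower at their brightest probe (-2.08 and -1.98), but another TSNAX probe had a log2 fold change of -0.24 and another FMC1 probe one of 0.02, and neither was called. Genes such as RPL21 and RPL26 have many near-identical processed copies in the genome, so their probes may read more than 1 locus.

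Gene lists drawn by symbol, 67 in all with 2427 measured genes, showed where the calls fell. Lists with more genes lower included bright ones, with median input signals of 14.25 (cytosolic ribosomal proteins) and 12.71 (respiratory chain). Lists with more genes higher included dimmer ones, such as Wnt (8.77) and homeobox genes (9.01), against 9.38 for all genes. Nuclear RNAs (8.32) and elongation and release factors (12.29) went the other way. The part of signal level was not tested. Homeobox factors, which set regional identity in development, were among the lists with most genes enriched: 32 of 54 were higher and 4 lower, against 30.3% and 25.7% of all genes, and their median log2 fold change was 0.37, or 0.63 with the dimmest 25% of probes left out. ZFHX3, a large factor with homeodomains and zinc fingers, read 11.14, 11.27 and 11.33 in the pull-downs, against 9.13, 9.06 and 9.04 in the inputs (log2 fold change 2.17 ± 0.08). HOXC8 read 11.65, 11.69 and 11.87 in the pull-downs, against 9.77, 9.59 and 9.37 in the inputs (2.16 ± 0.11). For both genes the groups were far apart compared with the spread within them. HOXD10 rose by 1.69 ± 0.09 and HOXC6 by 1.62 ± 0.13. Split by HOX cluster, a division made after the values were seen, 4 of 5 HOXC genes, 5 of 8 HOXB genes and 4 of 8 HOXD genes were higher, with medians of 1.12, 0.36 and 0.24, and the 1 HOXA gene measured, HOXA2, was higher by 0.38. HOXD13 went the other way: it read 8.77, 9.07 and 8.98 in the pull-downs, against 9.27, 9.50 and 9.54 in the inputs (-0.50 ± 0.12, adjusted p = 0.00297 in limma). TGIF1, a homeodomain repressor of TGF-beta targets, was lower by 0.39 on the log2 scale and the HOX cofactor MEIS3 by 0.38.

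Other families of transcription factors had few or no members among the lower genes. Of 14 SP, KLF and EGR factors, zinc finger proteins that bind GC-rich promoters, 9 were higher and 0 lower, with a median log2 fold change of 0.65. SP1 rose by 1.28, the immediate early factor EGR1 by 1.14 and KLF2 by 1.04. Of 27 ZBTB factors 17 were higher and 0 lower (median 0.39), led by ZBTB2 with 1.27. Nuclear receptors and their cofactors had 13 of 24 genes higher and 1 lower, with the coactivators NCOA6 (1.48) and NCOA1 (1.12) among those higher and the orphan receptor NR2F6 (-0.35) lower. The much larger group of ZNF zinc finger genes had 86 of 242 higher and 33 lower with a median of 0.09, so its share of higher genes, 35.5%, was near that of all genes.

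In the MYC and MAX network, whose members pair with MAX to activate or repress growth genes, 6 of 9 genes were higher and 0 lower. MYC read 11.58, 12.14 and 12.17 in the pull-downs, against 10.28, 10.31 and 10.34 in the inputs. Its log2 fold change was 1.66 ± 0.13 (adjusted p = 1.88e-07, limma), and pull-down 1 lay below the other pull-downs but more than 1 log2 unit above every input. The MAX partners that repress were also higher: MXD4 by 2.03 ± 0.15, MNT by 1.20 and MXI1 by 0.71. MAX itself had a log2 fold change of -0.31 and passed neither test.

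Of the signalling lists, the canonical Wnt pathway had the largest share of higher genes. In this pathway, Wnt ligands bind frizzled and LRP receptors, which stabilises beta-catenin, and TLE proteins hold its target genes silent. Of 30 genes 20 were higher and 0 lower (median log2 fold change 0.45). Among receptors, FZD9 read 10.87, 10.92 and 10.92 in the pull-downs, against 9.82, 9.41 and 9.33 in the inputs (1.38 ± 0.12), and LRP5 rose by 1.25 ± 0.12, while 4 of 9 frizzled genes in all were higher. Among nuclear members, BCL9, a coactivator of beta-catenin, read 11.05, 11.15 and 10.98 in the pull-downs, against 9.57, 9.62 and 9.45 in the inputs (1.52 ± 0.10). The groups did not overlap for either gene. The corepressor TLE5, a short TLE protein, read 13.17, 13.44 and 13.18 in the pull-downs and 11.69, 11.53 and 11.97 in the inputs (1.53 ± 0.12).

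The TGF-beta and BMP pathway had 12 of 23 genes higher and 2 lower. SMAD4, the SMAD shared by both branches, rose by 1.03 ± 0.12, the ligand BMP7 by 0.94, the inhibitory SMAD7 by 0.78 and the receptor BMPR2 by 0.78, whereas ID2, a target of BMP signals, read 10.61, 10.83 and 10.51 in the pull-downs, against 12.03, 11.62 and 11.53 in the inputs (-1.07 ± 0.20). In the Notch pathway 11 of 22 genes were higher and 0 lower, among them the effectors HEY1 (1.16), HES1 (1.05) and HEY2 (0.82) and NUMB (0.86), an inhibitor of the receptor. The PI3K, AKT and mTOR list had 10 of 24 higher and 2 lower, with TSC1, which restrains mTOR, at 1.40 and FOXO3 at 1.15. The Hippo list had 6 of 17 higher (35.3%, near the 30.3% of all genes) and 1 lower. Among those higher were the kinases TAOK1 (1.54) and STK4 (1.01), which had 1.80 and 1.01 with miR-199a-5p. Receptor tyrosine kinases had few calls: 3 of 20 were higher and 2 lower, below the shares of all genes. Of the 14-3-3 proteins, YWHAG was the only one higher, and YWHAZ (-0.61) and YWHAQ (-0.53) were among 3 of 6 that were lower.

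Complexes of the transcription and chromatin machinery were split. Mediator, which links enhancer-bound factors to RNA polymerase II, had 13 of 26 subunits higher and 8 lower, with a median log2 fold change of 0.44 (0.29 when all probes of a gene were averaged). MED15, of its tail, read 10.42, 10.28 and 10.16 in the pull-downs, against 8.61, 8.44 and 8.45 in the inputs (log2 fold change 1.79 ± 0.10), and MED12, of its kinase module, rose by 1.78 ± 0.20. MED7, of the middle module, read 8.25, 8.15 and 8.11 in the pull-downs, against 8.76, 9.03 and 9.06 in the inputs (-0.78 ± 0.11), and MED8, MED4 and others were also lower. Genes drawn by symbol as RNA polymerase subunits ran the opposite way, with 4 of 33 higher and 17 lower and a median of -0.36. POLR2A, the largest subunit of polymerase II, was one of the exceptions: it read 13.82, 13.16 and 13.66 in the pull-downs, against 12.15, 12.20 and 12.29 in the inputs (1.33 ± 0.16). POLR2L, a small subunit shared by the nuclear polymerases, averaged 9.20 ± 0.22 in the pull-downs and 10.09 ± 0.03 in the inputs (± SD over the 3 arrays of each), which is -0.89 ± 0.13 on the log2 scale, and POLR1H of polymerase I fell by 1.61. Of 16 genes drawn by symbol for polymerase II, 2 were higher and 8 lower. These 16 include the pseudogene POLR2J4 and POLR2M, which is not a core subunit. The split was similar for polymerases I and III, with 2 of 17 higher and 9 lower.

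Of the histone acetyltransferases, deacetylases and bromodomain proteins, 15 of 33 were higher and 7 lower. EP300, given above, and its paralogue CREBBP (1.49) stood beside TRRAP, a scaffold of acetyltransferase complexes (1.81), and KAT6A (1.31). Of the histone methyltransferases and demethylases, 17 of 42 were higher and 4 lower. SETD1A (1.31), SETD1B (1.11) and KMT2A (1.05), which methylate histone H3 at lysine 4 near promoters, were the largest, and 5 of 6 genes of the KMT2 and SETD1 group were higher. The heterochromatin enzyme SUV39H1 fell by 0.83. Among remodelling factors 15 of 32 were higher, led by the BAF subunit ARID1A (1.69), and 8 were lower, including INO80E (-1.20) and HELLS (-0.94).

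The machinery of silencing itself was represented by 29 genes, of which 15 were higher and 3 lower (median log2 fold change 0.27). The mRNA of AGO2, the slicing Argonaute, read 12.08, 12.05 and 12.29 in the pull-downs, against 11.12, 10.46 and 10.63 in the inputs. Its log2 fold change was 1.40 ± 0.15 (adjusted p = 3.22e-06, limma), and input 1 lay above the other inputs but below every pull-down. The decapping cofactor DCP1B rose by 1.73 ± 0.11 and CNOT3, of the CCR4-NOT deadenylase, by 1.42. CNOT7, a catalytic subunit of the same complex, read 11.24, 11.01 and 10.89 in the pull-downs, against 12.19, 11.94 and 11.93 in the inputs (-0.97 ± 0.11), and DICER1, which cuts miRNA precursors, fell by 0.43. Of the CCR4-NOT subunits as a group, 2 of 9 were higher and 2 lower, whereas 4 of 5 Argonaute and TNRC6 genes were higher and 0 lower.

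**Figure D3:**
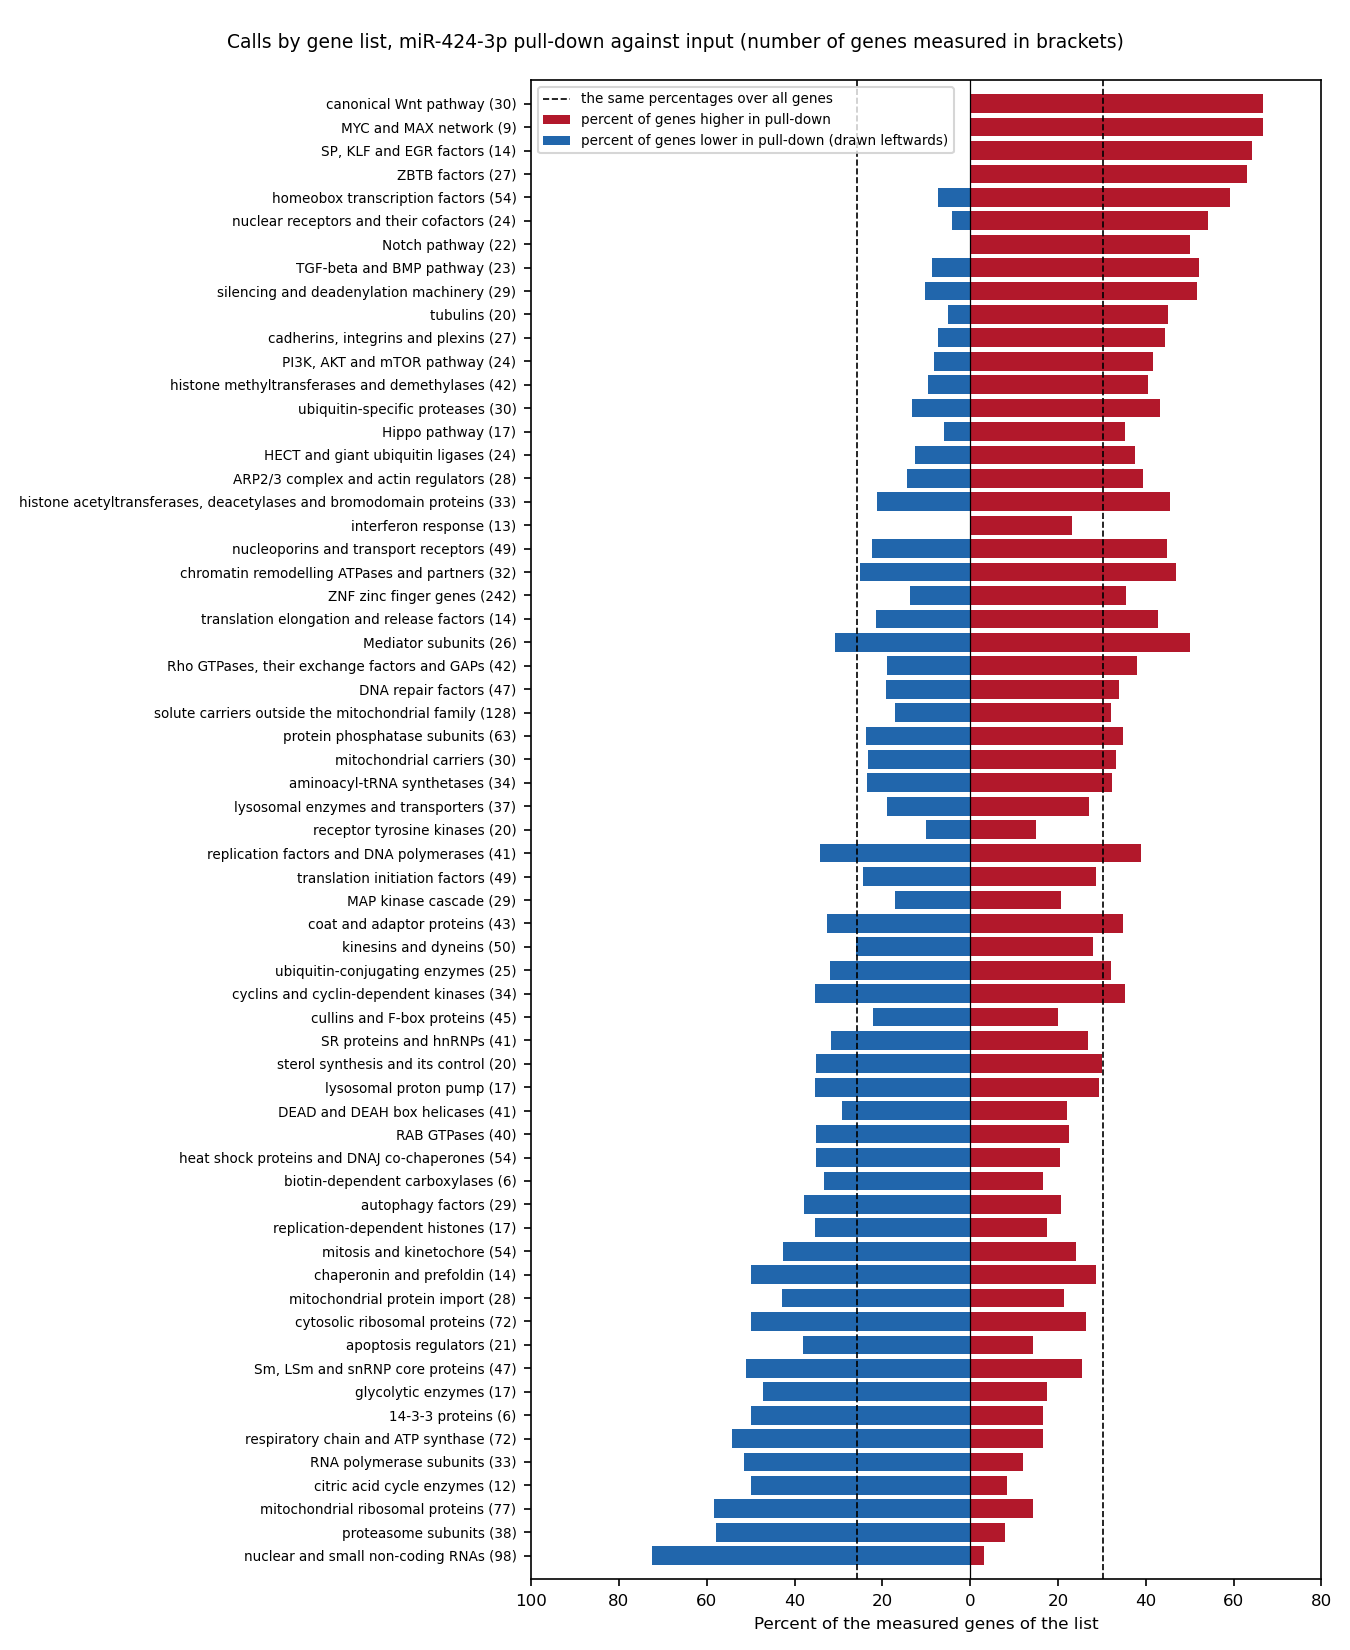
Percent of the measured genes of each list that were higher in pull-down (red, drawn to the right) and lower (blue, drawn to the left), with the number of genes in brackets and dashed lines at 30.3% and 25.7%, the shares over all genes. Lists run by the difference of the 2 shares, from the Wnt pathway with 20 of 30 genes higher to nuclear and small non-coding RNAs with 71 of 98 lower.

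At the other end were probes for RNAs that work in the nucleus and nucleolus. The study's methods describe amplifying and labelling captured mRNAs. Whether these probes read the mature small RNAs or longer precursor or host transcripts was not tested. Of 98 nuclear and small non-coding RNAs, 71 were lower in pull-down and 3 higher, and their median log2 fold change was -0.42. Small nucleolar and Cajal body RNAs, which guide the modification of ribosomal and spliceosomal RNA, had 57 of 81 lower and 2 higher, and spliceosomal snRNAs had 8 of 9 lower and 0 higher. RNU1-1, the U1 snRNA that recognises 5′ splice sites, read 8.91, 8.62 and 8.78 in the pull-downs, against 10.31, 10.18 and 9.93 in the inputs (-1.37 ± 0.14, adjusted p = 1.76e-06 in limma). SNORA67 read 8.61, 8.46 and 8.54 in the pull-downs, against 9.92, 10.21 and 10.26 in the inputs (-1.59 ± 0.12). SNORD36A, a box C/D snoRNA, read 8.29, 8.26 and 8.12 in the pull-downs, against 9.54, 9.71 and 9.69 in the inputs (-1.42 ± 0.12). For each of these RNAs the lowest input was more than 1 log2 unit above the highest pull-down. The exceptions included RN7SL1, the RNA of the cytosolic signal recognition particle, which has many near-identical copies: it read 14.55, 14.77 and 14.69 in the pull-downs, against 14.29, 14.28 and 14.28 in the inputs (0.39 ± 0.10). Most RNAs of this list had dim probes, with a median signal of 7.88 in the pull-downs and 8.32 in the inputs. The lowest value of any probe was 7.57 in each pull-down array and 7.72 to 7.75 in the input arrays. How far this gap at the bottom of the scale adds to the depletion of dim RNAs was not tested. With the dimmest 25% of probes left out, 26 were lower and 3 higher, and the median was -0.87.

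Both kinds of ribosomal protein genes had more members lower than higher. Of 77 mitochondrial ribosomal proteins 45 were lower and 11 higher (median log2 fold change -0.39). MRPS18C fell by 2.10 and MRPS21 by 1.62, while MRPS26 read 12.96, 12.73 and 13.08 in the pull-downs, against 11.58, 11.42 and 11.46 in the inputs (1.44 ± 0.15), and MRPS10 rose by 1.35. Cytosolic ribosomal proteins were divided, with 36 of 72 lower and 19 higher: 23 of 45 proteins of the large subunit and 13 of 27 of the small subunit were lower. RPL29 fell by 1.66 and RPL9 by 1.64. RPL14, in contrast, rose by 2.24 ± 0.24, and its second probe was higher by 1.90. Other lists of protein synthesis had more genes higher than lower. Of 14 genes drawn by symbol as elongation and release factors 6 were higher and 3 lower (median 0.18). Among them were the release factor GSPT1 at 0.87, the translocase EEF2 at 0.76 and EEF1D, of the exchange factor for elongation factor 1, at -0.75. Those higher include EEF1AKMT1 (0.53), which encodes an enzyme that methylates an elongation factor and is not itself such a factor. Aminoacyl-tRNA synthetases, which charge tRNAs, had 11 of 34 higher and 8 lower (median 0.01), shares near those of all genes.

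For the respiratory chain and ATP synthase, 39 of 72 genes were lower and 12 higher (median log2 fold change -0.38). This list was drawn by symbol and includes the pseudogene UQCRBP1. Cytochrome c oxidase had 9 of 11 subunits lower and 1 higher, complex I had 14 of 31 lower and 7 higher, complex III had 5 of 10 lower and 1 higher, and ATP synthase had 9 of 17 lower and 3 higher. COX6C read 11.85, 11.63 and 11.29 in the pull-downs, against 13.31, 13.51 and 13.59 in the inputs (-1.88 ± 0.14). Among those that went the other way, NDUFS3, a core subunit of complex I, read 14.38, 14.16 and 14.54 in the pull-downs, against 12.88, 12.83 and 12.89 in the inputs (1.49 ± 0.10). Both genes were separated on every array. ATP5IF1, the inhibitor of ATP synthase, rose by 1.29 and ATP5MC2, a gene for its membrane ring, by 1.20. Of 12 citric acid cycle enzymes 6 were lower, led by IDH3B (-1.37), and citrate synthase, CS, was higher (0.89). Mitochondrial carriers, which move metabolites across the inner membrane, had 10 of 30 genes higher and 7 lower (median 0.06), shares near those of all genes. Of 17 glycolytic enzymes 8 were lower and 3 higher, with PGK1 at -1.52 and PGAM1 at -1.06.

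Proteasome subunits had 22 of 38 genes lower and 3 higher (median log2 fold change -0.42). The 19S regulatory particle, which recognises and unfolds substrates, had 12 of 16 subunits lower and 0 higher, and the 20S core, which cuts them, had 6 of 14 lower and 2 higher. PSMC4, an ATPase of the 19S particle, read 8.47, 8.75 and 8.17 in the pull-downs, against 10.15, 10.40 and 9.91 in the inputs (-1.69 ± 0.14). PSMB3, of the 20S core, read 14.26, 14.14 and 14.32 in the pull-downs, against 13.15, 13.41 and 13.38 in the inputs (0.93 ± 0.12). The arrays of neither gene overlapped between groups. PSME2, of the 11S activator, fell by 1.67, while PSME3, of a related activator, rose by 0.50. Chaperonin and prefoldin subunits, which fold actin and tubulin, had 7 of 14 lower and 4 higher, with CCT4 at -0.83 and PFDN1 at 1.80.

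Of the Sm, LSm and snRNP core proteins, parts of the spliceosome, 24 of 47 were lower and 12 higher. SR proteins and hnRNPs, which bind pre-mRNA and guide splicing, had 13 of 41 lower and 11 higher (median -0.08), nearer to the shares of all genes. Of 8 genes drawn by symbol for the Sm proteins, which form a ring on snRNAs, 6 were lower. These 6 include SNRPB2, a protein of the U2 snRNP that is not part of the ring, which fell by 1.56. LSM3 fell by 1.26. SNRPA, a protein of the U1 snRNP, read 12.30, 12.30 and 12.32 in the pull-downs, against 10.53, 10.56 and 10.45 in the inputs, and was higher by 1.79 ± 0.15. Its arrays barely varied within a group.

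The cell cycle and DNA lists gave members in both directions. Of 41 replication factors 16 were higher and 14 lower: MCM5 of the replicative helicase rose by 1.60, POLE3 of polymerase epsilon by 1.52 and 4 of the 6 MCM2 to MCM7 genes were higher, whereas RPA3, ORC3 (-1.30) of the origin recognition complex and GINS2 (-1.01) were lower. Of 54 mitosis and kinetochore genes 23 were lower and 13 higher, with the checkpoint protein MAD2L1 at -1.31, CENPN at -1.21 and the kinase AURKB at 1.38. Cyclins and their kinases had 12 of 34 higher and 12 lower. All 3 D cyclins were higher, with CCND3 at 0.91 and CCND1 at 0.89, and CDK1, the mitotic kinase, was at -1.35. Of 47 genes drawn by symbol for DNA repair, 16 were higher (34%, near the 30.3% of all genes) and 9 lower. The largest were ABRAXAS2 (2.08), PRKDC (2.02) and XRCC1 (1.64). ABRAXAS2 was drawn by its symbol and belongs to the BRISC complex. PRKDC encodes a kinase that joins broken DNA ends. A further PRKDC probe was higher by 0.83, and another had a log2 fold change of 0.12 and was not called.

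Autophagy factors had 11 of 29 genes lower and 6 higher, and close relatives moved apart. MAP1LC3B, the LC3 protein that coats autophagosomes, read 12.27, 12.23 and 12.30 in the pull-downs, against 10.48, 10.54 and 10.46 in the inputs (log2 fold change 1.77 ± 0.08). GABARAPL2, of the same protein family, read 11.19, 11.13 and 11.09 in the pull-downs, against 12.66, 12.96 and 12.76 in the inputs (-1.65 ± 0.09). In both genes the arrays of a group lay close together, and the groups did not overlap. ATG3, which joins these proteins to lipid, fell by 1.12. Translation initiation factors likewise had 14 of 49 higher and 12 lower, shares near those of all genes, with EIF1B (1.86) and EIF3H (1.72) at one end and EIF3M (-1.50) and EIF2B2 (-1.30) at the other. Of the 3 metallothioneins measured, MT1X and MT1F (-0.71) were lower and MT2A (0.80) was higher.

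Biotin-dependent carboxylases carry biotin as a cofactor, and transfected RNA can raise interferon genes, so both sets are described here. The cells of pull-downs and inputs all received the duplex, so this comparison cannot show whether transfection raised interferon genes. Of 6 carboxylase-related genes 1 was higher and 2 lower. ACACA, the acetyl-CoA carboxylase of fatty acid synthesis, read 12.14, 12.64 and 12.87 in the pull-downs, against 10.36, 10.59 and 10.65 in the inputs (log2 fold change 2.02 ± 0.26, adjusted p = 1.59e-05 in limma), and MCCC1 fell by 0.60. All ACACA pull-downs lay above all inputs. Of 13 interferon response genes 3 were higher (23.1%, against 30.3% of all genes) and 0 lower. IFI6, an interferon-induced gene, read 11.72, 11.56 and 11.51 in the pull-downs, against 9.96, 9.94 and 10.04 in the inputs (1.62 ± 0.10), and the median of the list was 0.02.

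The miR-199a-5p pull-down, set against its own input, shows how far the pattern differed by duplex. The difference of both log2 fold changes was tested for every probe in the same fit, and 1744 genes (18.1%) were more enriched with miR-424-3p and 2018 (20.9%) less. Of the 30 leading higher genes 28 were more enriched with miR-424-3p than with miR-199a-5p, and PRKDC and ACACA were less so (difference -1.16 ± 0.20 and -1.16 ± 0.37). Those 30 genes were chosen for their miR-424-3p values, so the count is a description. With miR-199a-5p the 30 genes had log2 fold changes of -0.28 to 3.18, with a median of 0.51, and 19 were higher. Of the 25 leading lower genes all 25 were lower with miR-199a-5p too, with a median of -1.22, and 20 of them were less enriched with miR-424-3p. RPL26 was among the exceptions, with a difference of -0.40 ± 0.26 that was not called. The 25 genes were likewise chosen for their miR-424-3p values, so their counts are a description too.

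By list, many homeobox factors differed between the duplexes: 28 of 54 were more enriched with miR-424-3p and 4 less, and their median log2 fold change with miR-424-3p was 0.37, against 0.01 for miR-199a-5p. HOXC6 differed by 1.92 ± 0.18. In the Wnt list 13 of 30 genes were more enriched with miR-424-3p and 2 less, and TLE5 differed by 2.04 ± 0.17. In the MYC and MAX network 5 of 9 were more enriched and 0 less. For nuclear and small non-coding RNAs, 34 of 98 were less enriched with miR-424-3p and 2 more, with medians of -0.42 and -0.14. For that list the miR-424-3p inputs were the brighter ones (median difference 0.14 from the miR-199a-5p inputs) and the miR-424-3p pull-downs the dimmer ones (median difference -0.15 from the miR-199a-5p pull-downs). The lowest value of an array was 7.72 to 7.75 in the miR-424-3p inputs and 7.6 to 7.62 in the miR-199a-5p inputs. The part of the inputs, or of these lowest values, in the difference was not tested.

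For some other lists the medians of both duplexes lay close together. The respiratory chain had a median of -0.38 with miR-424-3p, against -0.43 for miR-199a-5p, and 18 genes were more and 16 less enriched with miR-424-3p. Mitochondrial ribosomal proteins had medians of -0.39 and -0.36 in the same order. Further lists differed more. RNA polymerase subunits had medians of -0.36 and -0.08, with 5 of 33 genes more and 13 less enriched with miR-424-3p. For the proteasome they were -0.42 and -0.22 (6 of 38 more, 14 less) and for Mediator 0.44 and 0.08 (9 of 26 more, 5 less). Autophagy factors had 0.00 and 0.32 (3 of 29 more, 11 less). Over all genes, 18.1% were more and 20.9% less enriched. Several enriched lists also had more genes higher than lower with miR-199a-5p. SP, KLF and EGR factors had 9 higher and 0 lower (median 0.47), and 5 were more and 2 less enriched with miR-424-3p. ZBTB factors had 14 higher and 1 lower with miR-199a-5p (0.27), Notch genes 9 and 1 (0.22) and silencing genes 14 and 4 (0.25). Of the silencing genes, AGO2 differed by -0.32 ± 0.22 (adjusted p = 0.256 for lower, limma), which was not called, and CNOT4 by 1.65 ± 0.14. Biotin-dependent carboxylases had 5 of 6 genes less enriched with miR-424-3p and 0 more.

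**Figure D4:**
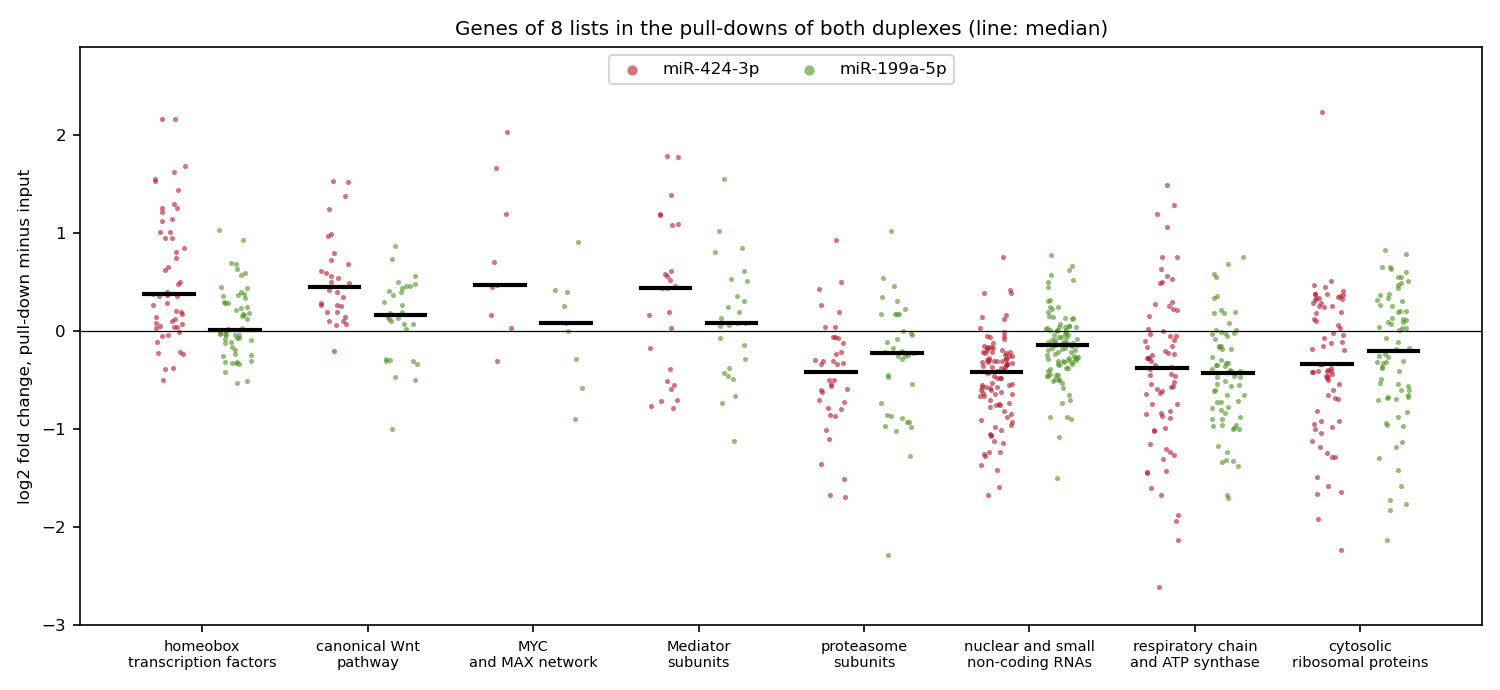
Log2 fold change of pull-down minus input (y axis) for the genes of 8 lists, with miR-424-3p in red to the left of miR-199a-5p in green and a black line at each median. The homeobox medians are 0.37 and 0.01, and those of the respiratory chain are -0.38 and -0.43.

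Several properties of genes that the choice of arrays did not use were set beside the calls, as descriptions over genes, which are not replicates. Transcript class came first: protein-coding genes were higher in 30.8% of cases and lower in 25.2%, snoRNAs had 50 of 72 lower, snRNAs had 11 of 13 lower, and long non-coding RNAs had 33 of 115 higher and 19 lower. The base composition at the gene start came next, as the share of G and C in a 300-base window from 250 bases before to 50 bases after the start listed by RefSeq, which was known for 7935 genes (82.3%). In the 10% of genes with the most GC (77.3% to 89.7%), 41.1% were higher and 14.4% lower, whereas in the 10% with the least (27.7% to 52.3%) 25.8% were higher and 25.8% lower. With miR-199a-5p the same classes had 40.2% and 30.1% of genes higher. The difference between duplexes did not follow GC in that way, with 19% of the richest class and 17.9% of the poorest more enriched with miR-424-3p.

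Chromosomes differed as well. On chromosome 19, which is rich in genes and in GC, 38.9% of 642 genes were higher and 13.9% lower, and without its ZNF genes the shares were 40% and 15.1% of 537. Chromosome 22 had 38.8% higher and 17.8% lower. Chromosome 2 had 24.4% higher and 33% lower. Long genes were also enriched more often: among protein-coding genes, the 10% with the longest span in the genome (149 to 2304 kb) had 39.7% higher and 13.5% lower, and the next 10% (86.8 to 148.7 kb) had 35.1% and 17.3%. The 8 classes of shorter genes, of about the same size, all had between 27.6% and 31.9% higher. With miR-199a-5p the longest class had 41.9% higher and the shortest 16.9%. These properties overlap in the genome, and their separate parts were not tested.

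**Figure D5:**
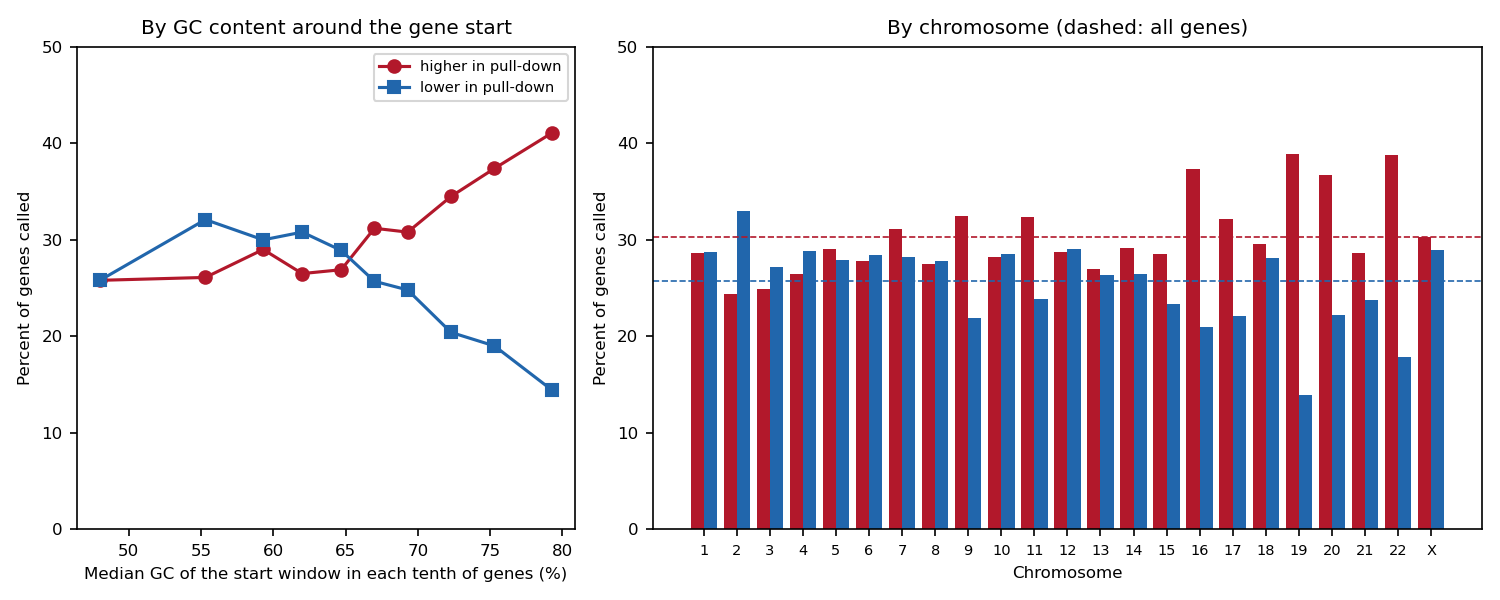
Percent of genes higher (red) and lower (blue) in the miR-424-3p pull-down in 10 classes of 724 to 876 genes by GC in the 300-base window at the gene start (x axis, median GC of each class) and by chromosome, with dashed lines at the shares over all genes. The share of higher genes is 25.8% in the GC-poorest class and 41.1% in the richest, and on chromosome 19 it is 38.9%.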

How the data were processed

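The authors made the deposited log2 values with lumi (2.2.1, from the submitters' processing notes). Its background adjustment, variance-stabilizing transformation and robust spline normalization are named in the study's methods. The rule that selected the 15329 listed probes was not given in the sources used here. The 24 per-sample columns of another table match no sample label by name and were left out. Of the probes, 12432 had 1 gene symbol in the platform annotation, 2 had several and 2895 had none, and 12430 were found in a RefSeq table of GRCh38.p14, which changed 0 symbols.

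limma (version 3.58.1, R 4.3.3) fitted 4 groups on 12 arrays (8 residual degrees of freedom), and summaries used Python 3.11.15 with pandas 2.3.3. No set test was run. The script was tested on simulated data. Genes were named by rule: among called genes with separated groups, the 30 largest higher and 25 largest lower changes, up to 4 members of each list in its main direction and 3 in the other, and the 10 largest differences each way. Members, lists and rules were chosen with earlier results of these data known. Replicate numbers were not used as pairs in the main fit, and whether they pair the samples is not settled. Deviations from the group means correlated at 0.134, 0.06 and 0.258 in same-numbered miR-424-3p pairs, against -0.229 to 0.077 in the others. For miR-199a-5p the same-numbered pairs gave 0.075, 0.021 and -0.1, and the others -0.135 to 0.128. Alternatives were other scalings, array weights, the replicate block, a fit of the compared groups alone, two-sided tests, a filter on dim probes, other choices of probe and leaving out each array.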

Additional observations from a re-analysis of the deposited data

Results flagged for a closer look

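For 20 genes the enrichment with miR-424-3p differed from that with miR-199a-5p by the most among the called differences, the 10 largest each way (limma, tested on the difference itself). Groups of 3 arrays are too small for the test for a single outlying array. Values are the difference of the log2 fold changes, miR-424-3p minus miR-199a-5p, with its SE.

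Among genes more enriched with miR-424-3p, several were lower with the other duplex. EIF1B, a relative of the start codon selecting factor EIF1, differed by 2.74 ± 0.15, with a log2 fold change of 1.86 for miR-424-3p, against -0.88 for miR-199a-5p. AKIRIN2, a nuclear protein that helps import the proteasome, differed by 2.43 ± 0.12 (1.49 and -0.94 in the same order), and EIF3H, a subunit of the initiation factor eIF3, by 2.38 ± 0.14 (1.72 and -0.66). These genes had opposite signs in the pull-downs. FKBP3, a nuclear prolyl isomerase, differed by 2.25 ± 0.16 (1.70 and -0.55), MYC by 2.24 ± 0.19 (1.66 and -0.58) and MAP1LC3B by 2.20 ± 0.12 (1.77 and -0.43). UBE2D4 differed by 2.26 ± 0.27 (1.98 and -0.28). YWHAG differed by 2.19 ± 0.18 and POLD2 by 2.16 ± 0.22, and neither was called with miR-199a-5p. ENSA, an inhibitor of the phosphatase PP2A in mitosis, differed by 2.08 ± 0.21 through its value with miR-199a-5p (0.05 and -2.03).

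Among genes less enriched with miR-424-3p, SNX2, a sorting nexin of the retromer, differed by -3.06 ± 0.18 (-1.46 and 1.60) and CCDC59 by -2.84 ± 0.21 (-0.79 and 2.05). NSL1, of the kinetochore MIS12 complex, differed by -2.28 ± 0.21 (-1.12 and 1.16), the mitochondrial carrier SLC25A13 by -2.20 ± 0.19 (-0.64 and 1.57), PAXBP1 by -2.18 ± 0.18 (-0.74 and 1.44) and the co-chaperone DNAJC12 by -2.13 ± 0.19 (-0.98 and 1.15). All of these had opposite signs with the duplexes. MYL6, a myosin light chain, differed by -2.07 ± 0.19, SS18L2 by -2.07 ± 0.12 and RIDA, a deaminase, by -2.01 ± 0.25. BTBD7 differed by -2.25 ± 0.13 through its value with miR-199a-5p (0.07 and 2.32).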

How the results depend on the processing

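The counts of probes called in each direction stayed within 1.5 times the reported counts under every alternative run: between 3463 and 4429 higher, between 3596 and 4864 lower. With the replicate number as a block, 4061 probes were higher and 4373 lower, and 2757 were more and 2905 less enriched with miR-424-3p, against 2757 and 2877 without it. Of 434 genes examined, 410 kept their call in every alternative that gave them a value, and 14 of the 434 had none with the dimmest 25% of probes left out. Of 64 list medians, 0 were counted as turning their sign, but changes of sign between values close to 0 were not counted. Many medians moved beyond their spread over arrays: 25 without the dimmest probes, 19 with all probes of a gene averaged, 12 with cyclic loess, 10 with array weights, 5 with the brightest probe in the inputs and 9 to 15 with 1 array left out. The main lists gave the following values, and the cause was not tested. With the dimmest 25% of probes left out, the median was 0.63 for homeobox factors, 0.58 for the Wnt list and -0.87 for nuclear and small non-coding RNAs. With array weights the Wnt median was 0.48 and that of the nuclear RNAs -0.43, which cyclic loess put at -0.38. Averaging all probes of a gene gave -0.45 for the respiratory chain and 0.29 for Mediator, and taking the brightest probe in the inputs gave 0.32 for Mediator. Leaving out 1 array at a time gave ranges of 0.36 to 0.45 for Mediator, 0.45 to 0.49 for Wnt, -0.39 to -0.26 for cytosolic ribosomal proteins, 0.35 to 0.42 for homeobox factors, -0.42 to -0.36 for mitochondrial ribosomal proteins, -0.44 to -0.42 for nuclear RNAs, -0.44 to -0.37 for the proteasome and -0.42 to -0.36 for the respiratory chain.

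Without 1 array in turn, 3518 to 3860 probes were higher and 3880 to 4163 lower, and 2409 to 2785 were more and 2367 to 2929 less enriched with miR-424-3p. The planned comparison with protein length was not run, and the span of a gene and GC at its start, chosen after seeing the data, took its place. Signal near the bottom of the scale limits the dim lists, such as the small RNAs.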
